A study of Homo sapiens with 4 samples.

Results

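The genes of the proteasome and of its assembly chaperones were examined in Jurkat cells (an established human line derived from a T-cell acute lymphoblastic leukemia) upon one round of migration (ORM) through 3 μm pores. Members were all genes whose symbol on the array platform starts with PSMA to PSMG followed by a digit, together with POMP, ADRM1 and SEM1. This rule found 52 of the 17687 genes with a single symbol, each with 1 probe set. Of these, 47 encode parts, regulators or chaperones of the proteasome. The other 5 matched the rule by their symbol without being among these (PSMC3IP, PSME3IP1 and the antisense RNAs PSMA3-AS1, PSMB8-AS1 and PSMG3-AS1). PSMC5, PSMD7, PSMD13 and PSME2 had no listed probe set and were not analysed here. Transcripts were measured on human Clariom S arrays, in 2 samples of ORM cells collected below the pores of transwell inserts after 24 h and in 2 samples of control Jurkat cells, grown in suspension without migration. Both groups were cells of the same line, which was kept in RPMI medium with serum. By the paper's transwell method for chemotaxis, cells start in serum-free RPMI above the pores, with serum below them. Whether the ORM samples were made so is not stated, and a part of serum in the differences was not tested. The labels name no drug or genetic change, and each sample is titled a biological replicate. The description field names other culture conditions (a control, a 3D culture, a suspension after confinement), so the groups were taken from the titles, which the source field and the series design match.

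The proteasome is the protease that degrades proteins tagged with ubiquitin. Its barrel-shaped core particle holds rings of alpha subunits, which gate the entry, and rings of beta subunits, which carry the catalytic sites. The regulatory particle caps the barrel, and it is divided into a base of ATPases that unfold substrates and a lid that removes the ubiquitin chain. In lymphocytes and in cells exposed to interferon, inducible catalytic subunits replace the constitutive ones and form the immunoproteasome, which favours peptides for presentation to T cells. Dedicated chaperones put the particles together, and several transcription factors are known to act on proteasome genes as a group.

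The values are log2 signals, so a difference of 1 is a doubling. The 4 arrays had median log2 signals of 5.96 to 6.04 over 21448 probe sets. Over all of these, the difference between both control arrays was wider (SD 0.404) than that between both ORM arrays (SD 0.248). Among the 10 T-cell markers, 9 lay above the upper quartile of every array, and CD2 did not (5.29 and 5.54 in ORM cells, 5.51 and 5.34 in control cells). The summed log2 signal of these markers was 94.8 to 95.6 in ORM cells and 95.1 to 95.2 in control cells. Of 18 listed markers of other cells (B, myeloid, erythroid and epithelial cells and fibroblasts), 0 passed the threshold used below (0.424% of all probe sets passed it and were higher, 0.28% lower). At an unadjusted p under 0.05 from limma, CD3D was higher (log2 difference 0.52) and CD247 lower (-0.52) among the T-cell markers, and PAX5 of the B-cell list (-0.51) and LYZ of the myeloid list (-0.51) were lower. The 4 markers of B cells summed to 24.99 to 25.13 in ORM cells and 25.8 to 25.9 in the controls, and CD79A was at a log2 signal of 9.69 and 9.90 in ORM cells against 10.06 and 10.25 in control cells. Their part in the results was not tested.

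The median proteasome gene had a log2 signal 0.38 higher after migration, and PSMG1, a chaperone that assembles the alpha ring, was the one that passed the threshold of the study. Of the 47 genes, 42 had a log2 difference above 0 and 5 below 0, and the range was -0.20 to 0.96. Over all probe sets, 44.4% had a difference above 0, and the median was -0.04. At a log2 signal averaging 8 or more, 64.5% of 4417 probe sets lay above 0, with a median of 0.11. For proteasome genes that bright it was 32 of 34 (94.1%). The threshold of the study is a fold change over 1.8 with an unadjusted p under 0.05. By limma, 1 gene was past it and higher (2.13%, where 0.424% of all probe sets were) and 0 were lower (0.28% of all probe sets). With the p alone, 15 genes were higher (31.9%, against 5.91% of all probe sets) and 0 were lower (5.5% of all probe sets). In 30 of the 47 genes both ORM arrays lay above both control arrays (63.8%, against 21.4% of all probe sets). In 1 gene both lay below (24.2% of all probe sets), and in 16 the groups overlapped. With limma's p adjusted over all probe sets, 0 proteasome genes passed 0.05 (0.0% of all probe sets), and the lowest adjusted value was 0.428. The 15 genes higher at an unadjusted p under 0.05 became 8 with quantile normalization (17.0%, against 5.45% of all probe sets). With 1 array left out, the median log2 difference of the 47 genes was 0.23 to 0.42. The number at that p also changed then, as given at the end. The p-values rest on the spread of these 4 arrays, and an exact permutation test of 2 against 2 arrays cannot give a two-sided p under 0.333.

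**Figure D1:**
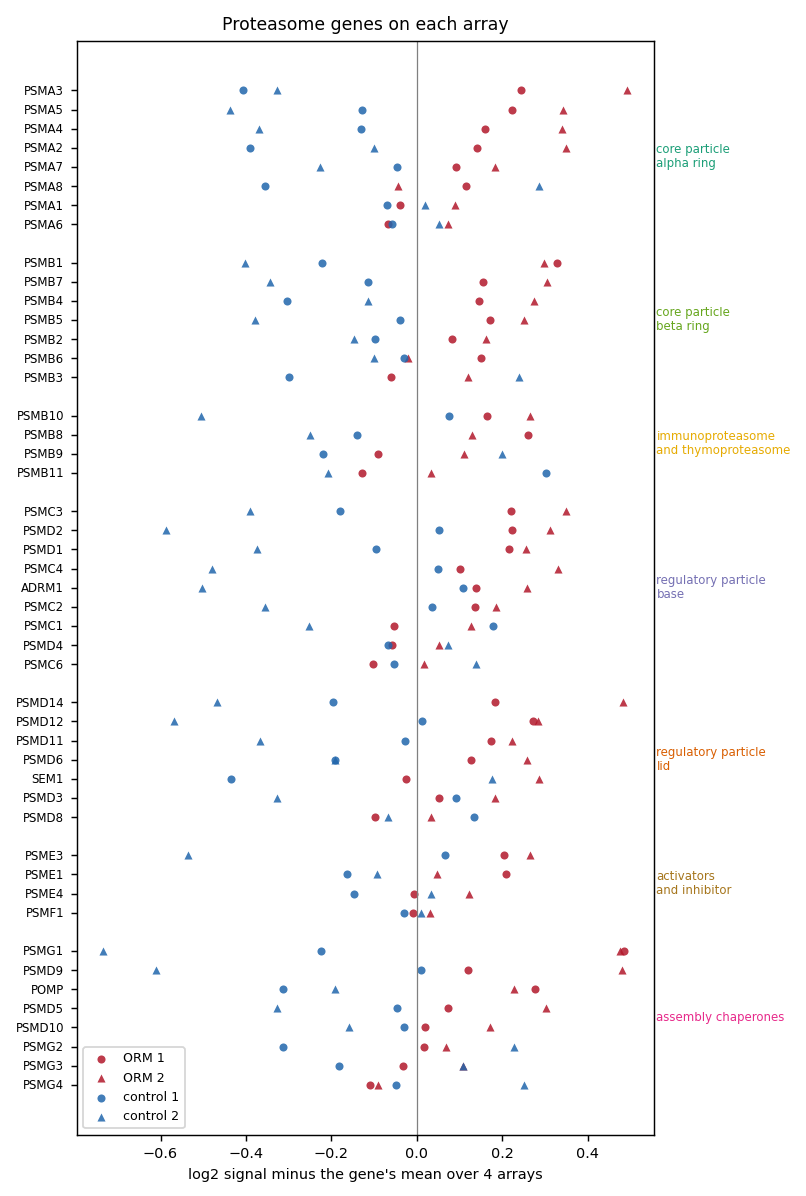
Log2 signal of each of the 47 proteasome genes on each array, minus the mean of that gene over the 4 arrays (horizontal axis), with genes grouped by their place in the proteasome; red marks are ORM arrays, blue marks control arrays, circles replicate 1 and triangles replicate 2. Both red marks lie to the right of both blue marks in 30 genes, and ORM replicate 2 is the highest array for 31 genes.

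The difference was seen against each control array but was uneven. The median log2 difference of the ORM mean was 0.23 against control replicate 1 and 0.39 against control replicate 2. Control replicate 2 was the lowest array for 27 of the 47 genes and control replicate 1 for 16. ORM replicate 2 was above ORM replicate 1 in 40 genes, by a median of 0.12, a shift that all probe sets together did not show (0.01). Probe sets at a signal of at least 8 had a median log2 difference of 0.135 without ORM replicate 1 and 0.085 without ORM replicate 2. Proteasome genes had 0.415 and 0.315. For PSMD2, PSMD9 and PSMD12 most of the distance came from control replicate 2, with 0.22, 0.29 and 0.27 against the first control array and 0.86, 0.91 and 0.85 against the other. PSMA3 (0.78 and 0.70), POMP (0.57 and 0.45) and PSMD6 (0.39 and 0.39) lay at a like distance from both.

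**Figure D2:**
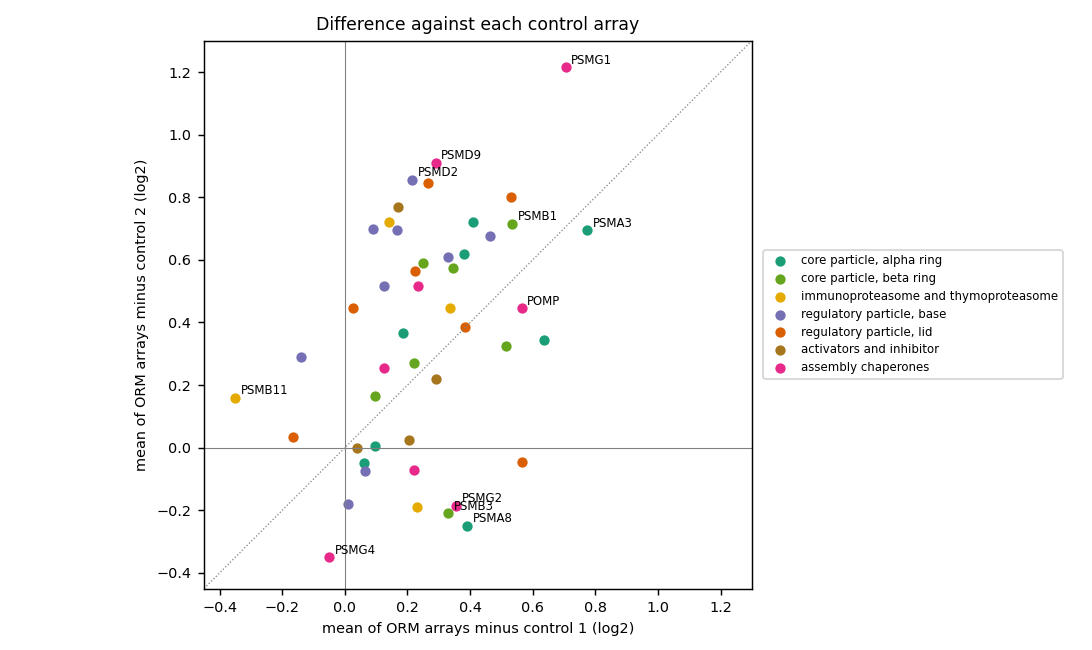
Mean of both ORM arrays minus control replicate 1 (horizontal) and minus control replicate 2 (vertical), both in log2, with a point for each of the 47 proteasome genes coloured by class; the dotted line marks equal differences. PSMG1 (0.71 and 1.22) is the highest point on the vertical axis, and PSMG4 is below 0 on both axes (-0.05 and -0.35).

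Over the whole array the median log2 difference varied with the signal. It was -0.11 at a mean log2 signal under 4, -0.09 at 4 to under 6, -0.005 at 6 to under 8, 0.115 at 8 to under 10 and 0.085 at 10 or more. With quantile normalization the median of probe sets at 8 or more was 0.0225 in place of 0.11, and that of the proteasome genes was 0.30. Proteasome genes are bright, and 34 of the 47 had a mean log2 signal of at least 8. Of these 34, 14 had an unadjusted p under 0.05 and were higher (41.2%, against 10.9% of the 4417 probe sets that bright), and 26 had both ORM arrays above both control arrays (76.5%, against 43.9%). The 27 genes at 8 to under 10 had a median of 0.43, the 7 at 10 or more a median of 0.08 and the 13 under 8 a median of 0.08. The part of the signal in these differences was not tested.

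**Figure D3:**
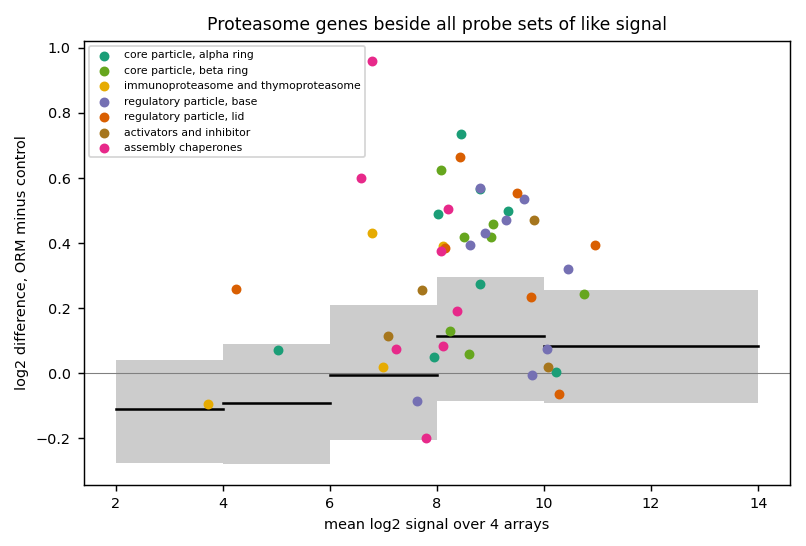
Log2 difference between ORM and control cells (vertical) against the mean log2 signal over the 4 arrays (horizontal); points are the 47 proteasome genes coloured by class, black lines the medians of all probe sets in bands of signal and grey boxes their lower and upper quartiles. Most proteasome genes between signals of 8 and 10 lie above the upper quartile of their band (0.30).

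Among the assembly chaperones, PSMG1 rose and its partner PSMG2 did not pass the threshold. PSMG1 was at a log2 signal of 7.28 and 7.27 in ORM cells, and at 6.57 and 6.06 in control cells. The ORM arrays were nearly equal and the control arrays lay 0.51 apart, so that the groups did not overlap. The log2 difference was 0.96 (standard error 0.21), a 1.95-fold change (unadjusted p = 0.00311, adjusted p = 0.428 from limma), and without control replicate 2 it was 0.71 and did not pass the threshold. PSMG2, which forms a dimer with PSMG1 that starts the alpha ring, was at 8.13 and 8.18 in ORM cells and at 7.80 and 8.34 in control cells, with both ORM arrays between the control arrays and a log2 difference of 0.09 (standard error 0.22).

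POMP, which guides the beta subunits into the core particle and is degraded as its first substrate, was at 8.49 and 8.44 in ORM cells against 7.90 and 8.02 in control cells. Its log2 difference was 0.51 (standard error 0.16, unadjusted p = 0.0173 from limma). The groups were separate, with little spread in either. PSMG3 and PSMG4 form the other chaperone dimer of the core particle. PSMG3 overlapped between the groups, at a log2 difference of 0.08. PSMG4 was the one proteasome gene with both ORM arrays below both control arrays, at 7.69 and 7.71 against 7.75 and 8.05. Its log2 difference of -0.20 (standard error 0.18) was close to its error. PSMD5, PSMD9 and PSMD10 hold the ATPases of the base during its assembly, and their log2 differences were 0.38, 0.60 and 0.19, with the groups apart in each. Over the 8 chaperones the median was 0.28.

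In the alpha ring, PSMA3, PSMA5, PSMA4 and PSMA2 were higher by log2 differences of 0.49 to 0.74, while PSMA1 and PSMA6 were close to 0. PSMA3 had the largest difference of the core particle. Its log2 signals were 8.70 and 8.95 in ORM cells and 8.05 and 8.13 in control cells. No ORM array came near a control array, and the log2 difference was 0.74 (standard error 0.17, unadjusted p = 0.0043 from limma), a 1.66-fold change. PSMA5 was at 9.02 and 9.14 against 8.67 and 8.36, a log2 difference of 0.57 (standard error 0.18). PSMA4 and PSMA2 differed by 0.50 and 0.49, also without overlap, and PSMA7 by 0.28. PSMA6 was at 10.16 and 10.30 in ORM cells and at 10.17 and 10.28 in control cells. Those ranges all but coincide. PSMA8, the form of PSMA7 that is made in testis, was dim (4.68 to 5.32) and its groups overlapped. In this ring 4 of 8 genes were higher with an unadjusted p under 0.05 (5.91% of all probe sets, and 10.9% of those at a signal of at least 8), and the median difference was 0.38.

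In the beta ring the median was 0.42, and in 6 of 7 genes both ORM arrays lay above both control arrays (21.4% of all probe sets, and 43.9% of those at a signal of at least 8). PSMB1, a subunit without a catalytic site, was at 8.41 and 8.38 in ORM cells, and at 7.86 and 7.68 in control cells. This made a log2 difference of 0.63 (standard error 0.16, unadjusted p = 0.00744 from limma), and the groups were well apart. PSMB7, which carries the trypsin-like site, was at 9.21 and 9.36 against 8.94 and 8.71, and its log2 difference was 0.46 (standard error 0.17). PSMB4 and PSMB5 both had a log2 difference of 0.42, with unadjusted p-values of 0.0433 and 0.0581 from limma. PSMB5 carries the chymotrypsin-like site, the main target of proteasome inhibitors. PSMB2 (0.25) and PSMB6 (0.13), the latter with the caspase-like site, had smaller differences. PSMB3 was the one beta subunit whose groups overlapped, at 8.54 and 8.72 in ORM cells, inside the control arrays at 8.30 and 8.84.

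Each inducible catalytic subunit was set beside the constitutive one that it replaces. PSMB8, in place of PSMB5, was at 8.38 and 8.25 in ORM cells, and at 7.98 and 7.87 in control cells. The groups did not overlap, and the log2 difference was 0.39 (standard error 0.16, unadjusted p = 0.0498 from limma). PSMB10, in place of PSMB7, was at 6.96 and 7.06 against 6.87 and 6.29, a log2 difference of 0.43 (standard error 0.23) that was 0.14 without control replicate 2. PSMB9, in place of PSMB6, was at 6.91 and 7.11 in ORM cells, between the control arrays at 6.78 and 7.20. The inducible minus the constitutive difference was -0.03 for PSMB8 and PSMB5, with single pairs of an ORM and a control array from -0.25 to 0.19. It was -0.03 for PSMB10 and PSMB7 (-0.23 to 0.17) and -0.11 for PSMB9 and PSMB6 (-0.54 to 0.32). Exact permutation tests of these 3 ratios gave two-sided p-values of 0.667, 1.0 and 0.667, all 1.0 after Benjamini-Hochberg adjustment over 5 such pairs, in a design that cannot go below 0.333. The other pairs each held a dim probe set. They were PSMB11 with PSMB5, at -0.515 (-0.64 to -0.39, exact p = 0.333, the smallest possible), and PSMA8 with PSMA7, at -0.205 (-0.74 to 0.33, exact p = 1.0). PSMB11, the catalytic subunit of cortical thymic epithelium, lay under the lower quartile of each array (4.14 to 4.26), at 3.60 and 3.76 in ORM cells and 4.03 and 3.52 in control cells.

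In the base, both ORM arrays lay above both control arrays in 6 of the 9 genes measured (21.4% of all probe sets, and 43.9% of those at a signal of at least 8), with log2 differences of 0.32 to 0.57. With an unadjusted p under 0.05, 2 of the 9 were higher (5.91% of all probe sets, and 10.9% of those that bright). PSMC3, an ATPase, was at 9.02 and 9.15 in ORM cells, and at 8.62 and 8.41 in control cells, a log2 difference of 0.57 (standard error 0.17, unadjusted p = 0.0135 from limma). PSMD1, a large scaffold subunit, was at 9.50 and 9.54 against 9.19 and 8.91, and its log2 difference was 0.47 (standard error 0.17). The groups of both genes were well apart. PSMD2, the other scaffold, differed by 0.54, PSMC4 by 0.43 and PSMC2 by 0.32. These 3 had an unadjusted p over 0.05, and control replicate 2 lay 0.39 to 0.64 below control replicate 1. Of the ubiquitin receptors of the base, ADRM1 had a log2 difference of 0.40 (standard error 0.23) and PSMD4 one of -0.005 (standard error 0.16), at 9.71 and 9.82 in ORM cells and 9.70 and 9.84 in control cells. Without control replicate 2 they were at 0.09 and 0.065, and the difference between them was not tested. PSMC6 (7.53 and 7.65 against 7.58 and 7.77) and PSMC1 also overlapped. The median of the base was 0.40, but 0.13 against control replicate 1 alone and 0.61 against control replicate 2 alone.

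In the lid, PSMD14, the metalloprotease that cuts the ubiquitin chain off the substrate, had the largest difference. Its log2 signals were 8.62 and 8.92 in ORM cells and 8.24 and 7.97 in control cells. The log2 difference was 0.67 (standard error 0.19, unadjusted p = 0.0116 from limma), and the groups did not overlap. PSMD12 was at 9.77 and 9.78 in ORM cells against 9.51 and 8.93, a difference of 0.56 (standard error 0.22) in which the spread of both control arrays was wide. PSMD6 differed by 0.39 and had the same value, 7.96, in both control arrays. PSMD11 also differed by 0.40. PSMD8 was at 10.18 and 10.31 in ORM cells and 10.41 and 10.21 in control cells, with overlap. SEM1, the smallest lid subunit, had a dim probe set (3.82 to 4.54, around the lower quartile of the arrays), so its overlap says little about the gene. The median over the 7 lid genes was 0.39.

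The activators, which can cap the core particle in place of the regulatory particle, and the inhibitor PSMF1 had a median of 0.19 together, and 0 of these 4 genes had an unadjusted p under 0.05 (5.91% of all probe sets were higher at that p and 5.5% lower). PSME3, a nuclear activator, was at 10.01 and 10.07 in ORM cells, and at 9.87 and 9.27 in control cells. Its log2 difference of 0.47 (standard error 0.23) was 0.17 without control replicate 2. PSME1, a subunit of the activator that interferon induces, was at 7.93 and 7.77 against 7.56 and 7.63, a log2 difference of 0.26 (standard error 0.16). PSME4, another nuclear activator, overlapped at 0.12. PSMF1, known as an inhibitor of the core particle in vitro, was level in all arrays, at 10.06 and 10.10 in ORM cells and 10.04 and 10.08 in control cells.

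**Figure D4:**
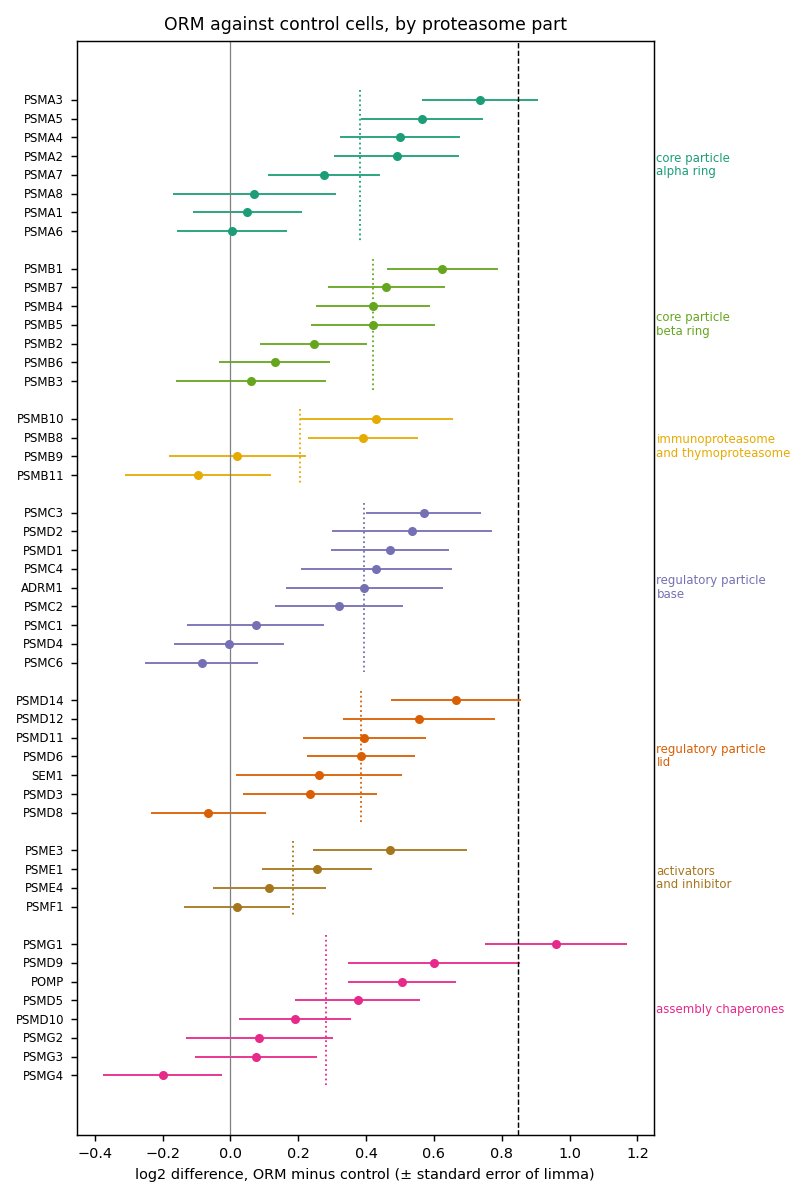
Log2 difference between ORM and control cells for the 47 proteasome genes, by class; points are differences, bars the standard errors of limma, dotted lines class medians and the dashed line the log2 value of a 1.8-fold change (0.85). PSMG1 (0.96) is the one point beyond the dashed line, and 5 genes lie below 0.

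Of the 5 genes matched by name alone, PSMC3IP, which works in homologous recombination and is no proteasome subunit, was at 7.0 and 6.78 in ORM cells and at 6.22 and 6.12 in control cells. Its log2 difference was 0.72 (standard error 0.17, unadjusted p = 0.00444 from limma), under the fold change of the threshold. PSME3IP1, a binding partner of PSME3, had 0.31 (standard error 0.20), at 9.0 and 9.18 against 8.99 and 8.58. The antisense RNAs PSMA3-AS1 and PSMG3-AS1 had 0.21 and 0.25. PSMB8-AS1 was at 5.31 and 5.00 in ORM cells, between the control arrays at 4.95 and 5.81. Whether the probes of the antisense RNAs keep them apart from their sense partners is not given in the sources used here.

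The bases before the start sites of some of these genes are shown because proteasome genes are known to share promoter elements. RefSeq promoters (GRCh38.p14) were found by symbol for 41 of the 47 genes, and the 250 bases before each start were searched on both strands for CCAAT, the box bound by NF-Y, for TGACNNNGC, the core of the antioxidant response element bound by NFE2L1 and NFE2L2, and for the core of the interferon-stimulated response element, which is GAAA, any 2 bases and GAAA again. Matches are in capitals, and every window ends at the base before the start site. PSMG1 is shown as the gene past the threshold, over 250 bases at chr21:39183452-39183701 (minus strand), with 1 CCAAT and 1 TGACNNNGC.
PSMG1: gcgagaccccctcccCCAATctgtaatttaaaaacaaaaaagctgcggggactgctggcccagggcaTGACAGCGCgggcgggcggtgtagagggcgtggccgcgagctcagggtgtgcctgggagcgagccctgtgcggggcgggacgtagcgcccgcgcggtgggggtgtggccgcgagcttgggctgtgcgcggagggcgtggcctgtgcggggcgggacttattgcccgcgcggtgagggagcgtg
PSMA3 (chr14:58244723-58244842, plus strand), PSMA5 (chr1:109426449-109426568, minus strand), PSMC3 (chr11:47426440-47426559, minus strand) and PSMD14 (chr2:161308305-161308424, plus strand) are shown over 120 bases, as genes with large differences whose matches are CCAAT on one strand or on both. In PSMD14 a match on each strand overlaps in CCAATTGG. These windows were picked for both traits, and other genes went the other way. PSMD9 (log2 difference 0.60) and PSMD12 (0.56) held no CCAAT in their 250 bases, while PSMB3 (0.06) and PSMD8 (-0.065) did.
PSMA3: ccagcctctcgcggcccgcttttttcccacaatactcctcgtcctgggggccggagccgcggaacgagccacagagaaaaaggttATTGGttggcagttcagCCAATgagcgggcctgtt
PSMA5: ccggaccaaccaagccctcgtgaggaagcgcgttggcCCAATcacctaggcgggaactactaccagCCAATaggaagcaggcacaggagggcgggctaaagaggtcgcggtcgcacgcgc
PSMC3: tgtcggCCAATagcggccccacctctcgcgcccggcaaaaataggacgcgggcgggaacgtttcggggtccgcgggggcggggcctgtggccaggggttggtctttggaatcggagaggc
PSMD14: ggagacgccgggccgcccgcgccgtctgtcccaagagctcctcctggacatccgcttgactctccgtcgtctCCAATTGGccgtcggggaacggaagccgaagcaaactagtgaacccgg
PSMB10 (chr16:67936851-67936950, minus strand) and PSMG4 (chr6:3258847-3258946, plus strand) are shown over 100 bases for the interferon element. The letters GAAAGCGAAA are the same in both, while the log2 differences were 0.43 and -0.20. PSMA4 (0.50) and PSMB4 (0.42) also held the interferon element in their 250 bases and are not shown. PSMA6 (chr14:35292217-35292316, plus strand), with a difference near 0, held none of the 3 motifs in these 100 bases.
PSMB10: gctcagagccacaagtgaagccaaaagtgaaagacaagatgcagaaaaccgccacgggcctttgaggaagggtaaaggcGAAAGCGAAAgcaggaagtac
PSMG4: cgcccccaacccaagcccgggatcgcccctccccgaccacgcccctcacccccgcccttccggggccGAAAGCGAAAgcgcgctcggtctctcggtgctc
PSMA6: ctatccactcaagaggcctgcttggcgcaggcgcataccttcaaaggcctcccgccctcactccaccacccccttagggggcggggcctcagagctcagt

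Of the 41 promoters of proteasome genes, 17 held CCAAT (41.5%, against 33.0% of 27305 promoters), 11 held TGACNNNGC (26.8%, against 11.0%) and 4 held the interferon element (9.76%, against 3.07%). Among the 13 of these genes that were higher with an unadjusted p under 0.05, 7 held CCAAT and 2 held TGACNNNGC, PSMG1 and PSMD12. The interferon element was held by 2 of the 13, PSMA4 and PSMB4. Among the other 28, 10 held CCAAT, 9 held TGACNNNGC and 2 held the interferon element. The median log2 difference was 0.40 with CCAAT and 0.32 without it, and 0.26 with TGACNNNGC and 0.39 without it. With the interferon element it was 0.425, and 0.375 without it. These counts describe letters in a window and were not tested.

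Genes that work with the proteasome had a median log2 difference of 0.20, beside 0.11 for probe sets at a signal of at least 8. Of 40 such genes measured, from lists of ubiquitin genes, associated enzymes, shuttles, transcriptional regulators and antigen processing, 0 passed the threshold, 6 were higher with an unadjusted p under 0.05 (5.91% of all probe sets) and 1 was lower (5.5% of all probe sets). Of 10 enzymes and adaptors that bind the proteasome, 7 had both ORM arrays above both control arrays (21.4% of all probe sets, and 43.9% of those at a signal of at least 8). PAAF1, which binds the ATPases of the base, was at 6.48 and 6.72 in ORM cells, and at 5.90 and 6.08 in control cells, a log2 difference of 0.61 (standard error 0.18, unadjusted p = 0.0118 from limma). UCHL5, a deubiquitinase docked on ADRM1, had 0.48 (standard error 0.18), and AKIRIN2, an adaptor for import of proteasomes into the nucleus, had 0.43 (standard error 0.17). USP14, the other deubiquitinase of the particle, had 0.35 (standard error 0.17), at 10.23 in both ORM arrays against 10.02 and 9.75. VCP, the ATPase that extracts ubiquitinated proteins, had 0.58 (standard error 0.22), with both ORM arrays near 11.0 and the control arrays at 10.69 and 10.14. Among the ubiquitin genes measured, UBA1, the main activating enzyme, had 0.39 (unadjusted p = 0.0551 from limma).

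Among the regulators of proteasome transcription, 0 of 10 genes had an unadjusted p under 0.05, where 5.91% of all probe sets were higher and 5.5% lower at that p. NFE2L1, the factor that raises proteasome transcripts when the protease is inhibited, was at 10.00 and 10.08 in ORM cells and at 9.80 and 9.95 in control cells, a log2 difference of 0.17 (standard error 0.16). NFE2L2 had 0.34 (standard error 0.18), and KEAP1, the adaptor through which NFE2L2 is degraded, had 0.49 (standard error 0.22). Of the 10 regulators, 6 had a difference above 0 (44.4% of all probe sets, and 64.5% of those at a signal of 8 or more). MAFF had the lowest, -0.43 (standard error 0.20), at 7.69 and 7.26 in ORM cells, below both control arrays at 7.86 and 7.95. In antigen processing genes lay in both directions. TAP2, which with TAP1 forms the peptide transporter of the endoplasmic reticulum, was at 8.32 and 8.12 in ORM cells, and at 7.76 and 7.13 in control cells, a log2 difference of 0.78 (standard error 0.24, unadjusted p = 0.0161 from limma). TAPBP had 0.47 (standard error 0.18) and TAP1 had 0.32 (standard error 0.16). B2M, the light chain of class I molecules, was at 10.45 and 10.47 in ORM cells, below both control arrays at 10.83 and 11.03, a log2 difference of -0.47 (standard error 0.16, unadjusted p = 0.0267 from limma).

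**Figure D5:**
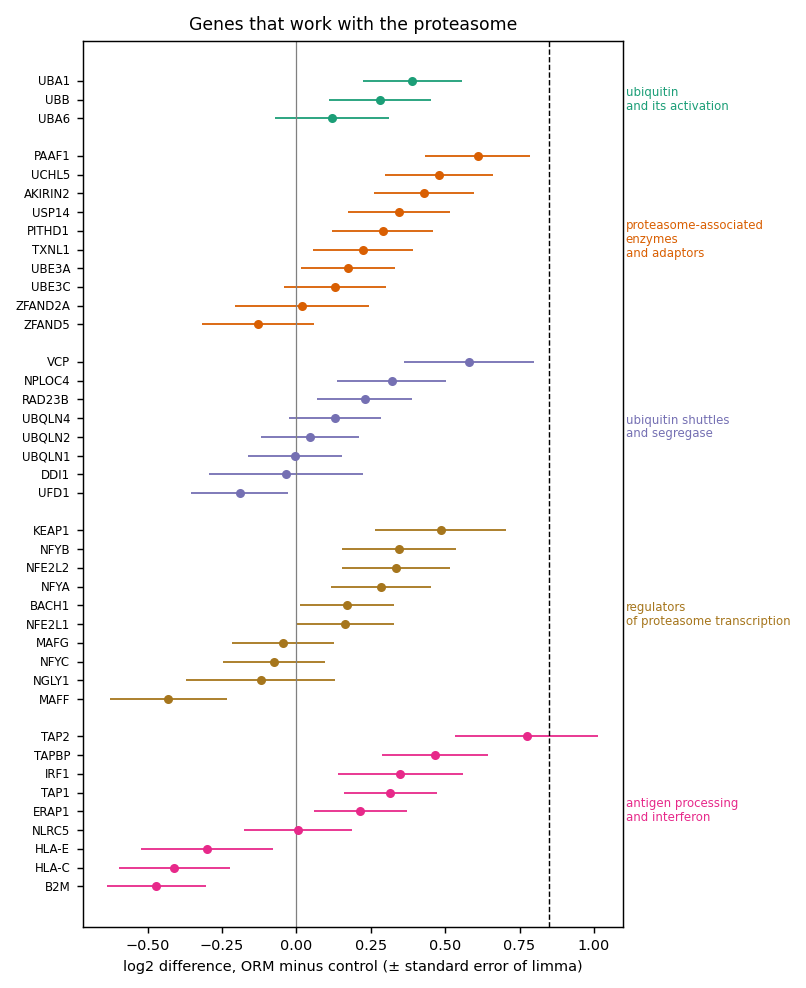
Log2 difference between ORM and control cells for 40 genes that work with the proteasome, by list; points are differences, bars the standard errors of limma and the dashed line the log2 value of a 1.8-fold change (0.85). No gene lies beyond the dashed line, and B2M (-0.47) has the lowest difference.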

How the data were processed

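RNA of 2 ORM and 2 control samples of Jurkat cells was hybridized to human Clariom S arrays. The authors deposited log2 signals per probe set, which by the supplementary methods a genomics unit had processed, normalized and log2 transformed. RMA and the Transcriptome Analysis Console are named by the submitters' processing notes, without versions. Scanner files were not used here. RMA compresses differences of dim probe sets, and probe affinity keeps signals of different genes from being compared.

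Each of 21448 probe sets was fitted in limma (lmFit, then eBayes; limma 3.58.1, R 4.3.3), with no filter, and p-values were adjusted by Benjamini-Hochberg over all probe sets. The study's table uses a fold change over 1.8 and a p under 0.05. Standard errors are those of limma. Symbols came from the platform's annotation, which does not list 3739 probe sets. Members and lists were chosen with earlier results of these data known. Genes are named by rule: members past the threshold, the 2 lowest p-values and the lowest difference of each class, and up to 10 members below 0. Of the lists of genes that work with the proteasome, those with an unadjusted p under 0.05, or the lowest p, were named, with NFE2L1, NFE2L2, TAP1 and USP14. MAFF was named after its values were seen. Markers were named at an unadjusted p under 0.05, and CD2 and CD79A after their values were seen. Further members are named as ranges required. On arrays simulated for this comparison, with 21448 probe sets and 20 rounds, the threshold recovered 9.33% of genes changed 1.5-fold, 77.2% of those changed 2-fold and 99.4% of those changed 3-fold. The simulated noise was equal for all arrays and independent between probe sets. Here the control arrays differed more (SD 0.404) than the ORM arrays (SD 0.248), so these shares need not hold for the deposited arrays.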

Additional observations from a re-analysis of the deposited data

How the results depend on the processing

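Student's t-test, the trend and robust settings and the replicate block cannot change the log2 differences. Averaging a gene's probe sets cannot either, as each member has 1. The median log2 difference of the 47 proteasome genes stayed above 0 under every other alternative run. It was 0.30 with quantile normalization, 0.43 with each array centred on its median and 0.31 over all 52 members. With 1 array left out it was 0.23 (without control replicate 2) to 0.42 (without ORM replicate 1). The number of genes past the threshold and higher was 1 by default and 0 by Student's t-test (0.173% of all probe sets). PSMG1 had a p over 0.05 by that test, which the paper names in its general statistics. For the arrays the paper names the Transcriptome Analysis Console. At a fold change over 1.5 the number was 4 (2.25%), and at a fold change over 2 it was 0 (0.186%). With 1 array left out it was 0 (without control replicate 2, 0.298% of all probe sets) to 3 (PSMD2, PSMD9 and PSMG1, without control replicate 1, 1.93%), and 2 without ORM replicate 1 (0.629%). The number higher at an unadjusted p under 0.05 was 15, but 8 with quantile normalization (5.45% of all probe sets). By Student's t-test it was 7 (4.46%), POMP, PSMA3, PSMB1, PSMB2, PSMB8, PSMC3 and PSMD6. With 1 array left out it was 1 (without ORM replicate 2, 0.788% of all probe sets) to 23 (without control replicate 1, 11.7%), with 3 without ORM replicate 1 (1.63%) and 7 without control replicate 2 (5.33%). No proteasome gene was lower at that p in any setting. The cause of these changes was not tested, beside the fewer arrays in the last settings.

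Genes close to 0 changed sign. The number above 0 was 42 (89.4%), but 37 with quantile normalization (78.7%) and 36 without ORM replicate 2 or without control replicate 1 (76.6%). Of all probe sets, 44.4% lay above 0 by default and 46.1% to 49.5% in these other settings. With quantile normalization PSMA6 was at -0.0913, PSMB3 at -0.035, PSMF1 at -0.0688 and PSMB11 at 0.0375, PSMA1, PSMC1 and PSMG2 were also below 0 (-0.0181, -0.0219 and -0.00125), and PSMD4 was at 0.0475 with each array centred on its median. With 1 array left out the differences were -0.065 to 0.075 for PSMA6, -0.21 to 0.33 for PSMB3, -0.35 to 0.16 for PSMB11, -0.18 to 0.01 for PSMC6, -0.075 to 0.065 for PSMD4, -0.165 to 0.035 for PSMD8 and -0.655 to 0.205 for PSMB8-AS1. With the replicate number as a block, 12 genes were higher at an unadjusted p under 0.05 (5.14% of all probe sets) and PSMG1 was past the threshold. The numbers are not known to pair the samples, and over all probe sets the deviations of same-numbered arrays correlated at 0.0929. Filters on dim probe sets, trend and robust settings of limma and averaging a gene's probe sets left both counts within 1.5 times. The averaging left the values of the members as they were, since each has 1 probe set. The comparison with probe sets of a signal of at least 8 was added after the data had been seen. The precision is limited by the 4 arrays.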
